A study of Mus musculus with 2 samples.

Results

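The genes described here are inversin, Invs, and 5 further genes of nephronophthisis and the ciliary proteins around inversin: Nek8, Nphp4, Iqcb1, Glis2 and Anks6. Their members were all probe sets that the platform annotation names with 1 of these symbols, 10 of the 45037 probe sets used. Of the 6 genes, 5 were read by at least 1 probe set, Invs by 3, Nek8, Nphp4 and Glis2 by 2 each and Iqcb1 by 1. No probe set carried the symbol or the gene identifier of Anks6 in the annotation used, so Anks6 was not analysed here.

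RNA of whole mouse kidney was measured on 1 Affymetrix array per group, so no comparison has replicates, no test was possible and the number of arrays limits the precision. The genotype of the control was +/+ at Invs and that of the cystic mice inv/inv, homozygous for the mutation, and both carried the transgene inv-deltaC::GFP, whose inversin lacks the C-terminus. The inv mouse is a model of nephronophthisis type 2, and per the labels the transgenic mutant has many kidney cysts with normal situs. Hence the control is no untreated wild type, and both arrays may hold transcripts of the transgene. The design gives an age of 4 weeks, and the labels of the cystic array 28 days and female sex, with neither given for the control. How many animals or kidneys gave each RNA, and the promoter of the transgene, are not given in the sources used here.

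Nephronophthisis is a recessive disease of the tubules with cysts and fibrosis, and most of its genes encode proteins of the primary cilium, the sensory process on tubule cells. Inversin, a protein of ankyrin repeats, marks a segment near the base of the cilium, where the kinase Nek8 and the ankyrin repeat protein Anks6 are held with it. Nphp4 lies in the transition zone below, and Iqcb1, a calmodulin-binding protein, lies at the ciliary base with Cep290. Glis2 is a zinc finger transcription factor, and its loss in mice leads to kidney atrophy and fibrosis.

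Values are linear MAS5 signals as deposited. The median signals of the control and cystic arrays were 55.4 and 61.9, a shift of 0.16 on the log2 scale. A signal under the median of its own array was treated as not measured. A probe set under the median on 1 array only had that signal raised to the median, which makes its ratio a bound, and one under both medians is given by its signals alone. Log2 ratios are cystic minus control, and "rose" and "fell" are used only at a 2-fold difference or more. Over the 4694 genes with several measured probe sets, the log2 ratios of 1 gene's probe sets varied with a pooled SD of 0.29. This is a spread between probe sets within the same RNA. It can hold differences in what each probe set reads and says nothing of the spread between animals.

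The kidney markers were present on both arrays. All 8 were at or above both medians, among them Umod, the urinary protein of the thick ascending limb (8713 in control and 8160 in cystic kidney), and Aqp2, the water channel of principal cells (1358 and 1661). Of the 8, 2 fell at least 2-fold, Lrp2, the endocytic receptor megalin of the proximal tubule (5731 to 2461, log2 ratio -1.22), and Nphs1, the slit diaphragm protein nephrin of podocytes (204 to 97.1, -1.07), and 7 had ratios below 0. Of all 11994 measured genes, 3.78% fell at least 2-fold and 57.8% had ratios above 0. The female label of the cystic array was not borne out by its signals. Xist, the transcript of the inactive X chromosome, had signals of 282 and 387 at its brighter probe sets in control and of 2.3 and 57.4 in cystic kidney. The Y-linked genes Eif2s3y, Kdm5d and Uty had 6 of 9 probe sets at or above both medians, with signals of 65.9 to 206 in control and 90.1 to 198 in cystic kidney. Both arrays thus held Y-linked signal, and Xist signal above the median was seen in the control alone. The part of sex in the ratios below was not tested, and with these arrays it cannot be told apart from the genotype. These genes were chosen after earlier results were known.

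Of the 10 member probe sets, 6 were measured on at least 1 array. With the deposited scaling none of the 6 was counted as rising or falling at least 2-fold, the Invs bound included. Among all 24332 measured probe sets, 6.0% rose and 3.21% fell, 9.21% in all. Nek8, Nphp4, Iqcb1 and Glis2 were slightly higher in the cystic kidney, by 1.23-fold to 1.3-fold, and the brightest Invs probe set was at least 1.91-fold lower. The 4 probe sets under both medians were those left of Invs, Nek8 and Nphp4.

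**Figure D1:**
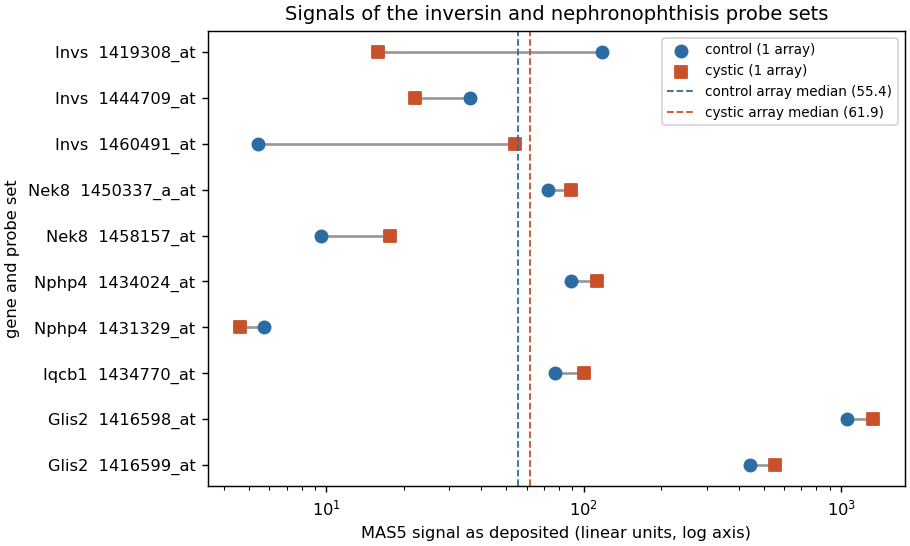
Deposited MAS5 signal (log axis) of each of the 10 member probe sets on the control array (circles) and the cystic array (squares), with the median signal of each array as a dashed line. Only Invs 1419308_at crosses the medians, from 118 to 15.9, and the measured probe sets of Nek8, Nphp4, Iqcb1 and Glis2 lie a little further right in the cystic kidney.

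Invs, the mutated gene, had 3 probe sets, of which only 1 was measured. Probe set 1419308_at, designed on the messenger RNA NM_010569, had a signal of 118 in control and 15.9 in cystic kidney. These are 2.13 and 0.257 times the median of the array. The control signal was measured and the cystic signal was not, so Invs was at least 1.91-fold lower (log2 ratio -0.93), and at least 2.13-fold lower with each array divided by its median (-1.09). The bound thus lies on either side of 2-fold by the scaling. Of the 22525 probe sets at or above the control median, 8.01% were under the cystic median, as this one was. With signals taken as they stand, 0.178% of the 22525 went down by at least as much as this one (7.42-fold). That size rests on a cystic signal that is not counted as measured.

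Probe set 1444709_at had Invs signals of 36 in control and 22.1 in cystic kidney, 0.65 and 0.357 times the medians. Probe set 1460491_at, designed on the cDNA AK020257, went the other way, from 5.4 to 54.2, or from 0.0975 to 0.876 times the medians. Both were under the median on each array, and no change is read from them. Signals in this range varied widely: of 20705 probe sets under both medians, 36.4% differed at least 2-fold between the arrays. A difference as large as that of 1460491_at was less common. With signals taken as they stand, 1.52% of the 20705 went up by at least as much (10-fold). Which stretch of the Invs transcript each probe set reads, whether the mutant allele still gives it and whether the transgene carries it were not examined here. The 3 probe sets therefore do not check the genotype labels on their own.

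Invs starts head to head with Erp44, which encodes a chaperone of the endoplasmic reticulum, so the same stretch of DNA lies before both genes. It is shown because the brightest Invs probe set was measured in control kidney alone, while the probe sets of Erp44, on the other side of the same stretch, were measured on both arrays. RefSeq places the nearest Erp44 start site 125 bases before the Invs start site, on the opposite strand. The window below runs from 250 bases before to 50 after the Invs start, on the plus strand of GRCm38.p6 at chr4:48279510-48279809, and the capitals mark the 124 bases between the start sites.
Invs promoter: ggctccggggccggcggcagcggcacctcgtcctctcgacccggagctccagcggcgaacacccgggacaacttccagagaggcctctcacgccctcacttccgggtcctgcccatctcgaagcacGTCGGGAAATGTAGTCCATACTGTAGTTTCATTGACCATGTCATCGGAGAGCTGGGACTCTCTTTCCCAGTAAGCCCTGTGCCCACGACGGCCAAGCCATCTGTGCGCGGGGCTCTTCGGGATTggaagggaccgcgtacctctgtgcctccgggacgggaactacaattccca
Erp44 was measured on both arrays by both of its probe sets, with signals of 765 and 626 at its brighter probe set (log2 ratio -0.29) and of 176 and 177 at the other (0.01). Neither Erp44 probe set was past 2-fold, while the Invs probe set 1419308_at went from above to under the median.

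At its far end Invs meets Tex10, a nuclear protein gene on the opposite strand whose RefSeq span overlaps that of Invs. Tex10 had signals of 208 and 374 at its brighter probe set (log2 ratio 0.84) and of 90.9 and 170 at the other (0.91). Both Tex10 probe sets were higher in the cystic kidney by under 2-fold. Their names mark them as shared with other transcripts, so a separate value for Tex10 is uncertain. Whether the overlap with Invs bears on these signals was not tested.

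Further along chromosome 4, the 8 nearest genes with a probe set on each side of Invs had 33 probe sets, of which 20 from 12 genes were measured. Of these 20, 3 rose at least 2-fold and none fell, against 6.0% and 3.21% of all measured probe sets. The 3 belonged to the genes furthest away on the Erp44 side, where order is that of RefSeq: Galnt12, a glycosyltransferase (at least 2.12-fold), Col15a1, a collagen of basement membranes (2.54-fold), and Tgfbr1, the type I receptor of TGF-beta, at 1 of its 3 probe sets (2.4-fold, the others 1.85-fold and 1.73-fold). Col15a1 went from 313 to 794. With median division 2 of the 3 stayed past 2-fold, and Galnt12 had a bound of 0.92 on the log2 scale. Closer to Invs, Alg2 and Sec61b had log2 ratios of -0.05 and 0.16, and Stx17, a syntaxin of autophagy, had 0.21, -0.08, -0.61 and 0.44 at its 4 probe sets. Beyond Tex10, Tmeff1 and Plppr1 gave bounds of 0.38 and 0.35, Acnat2 had -0.34 and the mitochondrial ribosomal gene Mrpl50 -0.58 and -0.62. Nr4a3, Msantd3, Cavin4 and Baat were under both medians at every probe set. No measured neighbour probe set from Alg2 through to Mrpl50 was past 2-fold.

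**Figure D2:**
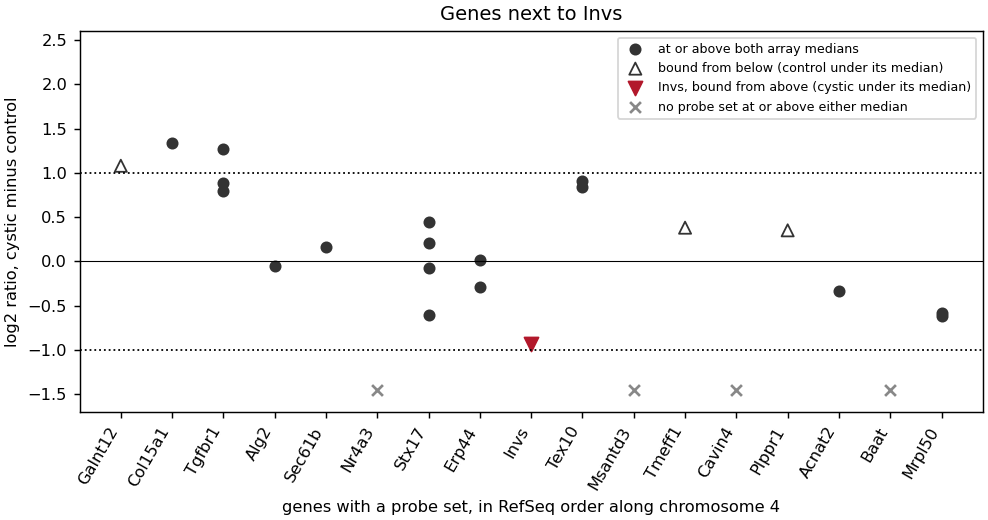
Log2 ratio (cystic minus control) of each measured probe set of the 8 genes on each side of Invs that have a probe set, in RefSeq order along chromosome 4; triangles are bounds, crosses mark genes with no measured probe set and dotted lines are 2-fold. Points past the upper line belong to Galnt12, Col15a1 and Tgfbr1, at the left end, and Invs has the lowest value, -0.93.

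Nek8, the NIMA-related kinase of the inversin segment, whose mutation causes cysts in the jck mouse, was measured by 1 of its 2 probe sets. Nek8 1450337_a_at had a signal of 72.4 in control and 89.1 in cystic kidney, 1.31 and 1.44 times the medians. That is a log2 ratio of 0.30, and 0.14 with each array divided by its median. The second, 1458157_at, had signals of 9.5 and 17.6, both under the medians. The measured Nek8 signals lay close above the medians, and with the limit set at the 60th percentile of each array neither counted as measured.

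Nphp4, a protein of the ciliary transition zone, was likewise measured by 1 of 2 probe sets. Nphp4 1434024_at had a signal of 89.5 in control and 112 in cystic kidney, or 1.62 and 1.81 times the medians, with a log2 ratio of 0.32 (0.16 with median division). Nphp4 1431329_at had signals of 5.7 and 4.6, both under the medians, and was designed on the cDNA AK016223.

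Iqcb1, mutated in nephronophthisis with retinal degeneration in people, had 1 probe set, 1434770_at. Its signal was 77.2 in control and 100.5 in cystic kidney, or 1.39 and 1.62 times the medians. The log2 ratio of 0.38 was the largest among members measured on both arrays, and it was 0.22 with median division.

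Glis2, the transcription factor, was measured by both of its probe sets, each designed on NM_031184. Glis2 1416598_at had a signal of 1056 in control and 1327 in cystic kidney, 19.1 and 21.4 times the medians. Glis2 1416599_at had 441 and 553, 7.97 and 8.93 times the medians. Both log2 ratios were 0.33, with a difference of 0.005 between them, against the pooled SD of 0.29 between probe sets of a gene. With median division both were 0.17. It is the only member with a repeat measurement above the medians, and the repeat comes from the same RNA.

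The 5 probe sets measured on both arrays thus had log2 ratios from 0.30 to 0.38, all above 0, and from 0.14 to 0.22 with median division. Over all 20721 probe sets measured on both arrays the median log2 ratio was 0.10, and 58.5% were above 0. Of the 20721, 6.74% had a ratio that rounds to between 0.30 and 0.38. In the class of 5181 probe sets with the lowest mean signal (59.1 to 123), which holds Nek8, Nphp4 and Iqcb1, the 10th and 90th percentiles of the log2 ratio were -0.39 and 0.74. In the class of 5180 with the highest (492 to 10700), which holds Glis2, they were -0.86 and 0.59. The members therefore lay inside the middle range of ratios at their signal, and their distance from 0 was close to the SD between probe sets of a gene. No change between the kidneys is read from them.

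**Figure D3:**
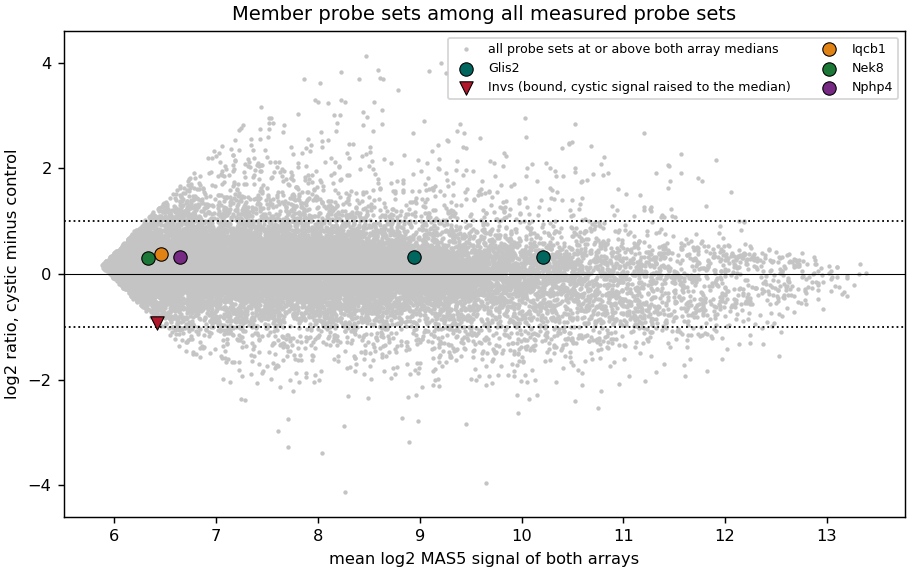
Log2 ratio (cystic minus control) against mean log2 signal for all 20721 probe sets at or above both array medians (grey) and the 6 measured member probe sets (coloured; the Invs triangle is a bound), with dotted lines at 2-fold. The members other than Invs lie between 0.30 and 0.38, inside the grey cloud.

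RefSeq promoter windows, of the same length as that of Invs, were found for Invs, Nek8 and Iqcb1 (1 each) and Nphp4 (3). They were searched on both strands for the CCAAT box, in the letters CCAAT, the GC box, in the letters GGGCGG, and the TATA box, in the letters TATAAA; no motif contains another. The CCAAT box was found once in the windows of Invs and Iqcb1, 4 times and once in a pair of Nphp4 windows and not in that of Nek8, and 37.4% of all 32851 windows held it. The GC box had 5 matches in Iqcb1, 2 in 1 of the Nphp4 windows, 1 in Nek8 and none in Invs, and 35.7% of all windows held it. The letters of the TATA box were in none of these 6 windows and in 13.6% of all windows. A match of letters is no measured site.

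Other genes of nephronophthisis were given by a list of 18 genes, chosen with earlier results of these data known, of which 15 had a probe set used here and 12 were measured. Of the 12, 1 rose and none fell, beside 6.96% and 3.78% (10.7% in all) of the 11994 measured genes. Their median log2 ratio was 0.03, beside 0.09 for all measured genes, and it was -0.13 with median division. The gene that rose was Dcdc2a, a doublecortin domain protein that binds microtubules in the cilium. Its signals were 65.1 and 838 at its brighter probe set (12.9-fold) and 115 and 309 at the other (2.69-fold), so both Dcdc2a probe sets rose but by different amounts. Next were the magnesium transporter Slc41a1 (log2 ratio 0.63) and the centriolar appendage proteins Cep164 (0.32) and Cep83 (0.28, with a bound of -0.22 at its second probe set). The lowest were Sdccag8 (-0.16), Ahi1 (-0.15), the intraflagellar transport gene Ift172 (-0.11) and Xpnpep3 (-0.10). Cep290, the partner of Iqcb1, had signals of 32.9 and 34.8, under both medians, as had Tmem67 (47 and 27.2) and Zfp423.

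Proteins reported to bind or act with the members or other nephronophthisis proteins made a list of 27 genes, of which 21 were measured. Of the 21, 2 rose and none fell, beside 6.96% and 3.78% of all measured genes, and nothing particular to the list is read from so small a count. The median log2 ratio was 0.19 (0.03 with median division). Bicc1, an RNA-binding protein that joins Anks6 through Anks3, went from 1599 to 3848 at its brightest probe set (2.41-fold), and its others gave 2.29-fold and 2.45-fold. All 3 Bicc1 probe sets thus rose by like amounts. Flna, the actin cross-linker filamin A, went from 446 to 1357 (3.04-fold) at its only probe set. The next were Prickle1 of planar cell polarity (0.67) and Yap1, the coactivator that Nphp4 bears on through Lats1 (0.50, and 0.91 at its second probe set). The lowest were the kinase Ptk2b (-0.69, and 0.17 at its second probe set), Hif1an (-0.39, with a bound of 0.33 at its second), the kinase Nek7 (-0.26, and 0.17 at another probe set) and the focal adhesion protein Tns1 (-0.15). Dvl1, a dishevelled protein that inversin binds, had -0.15 (second -0.42), Anks3 0.28 (second 0.67) and the kinase Lats1 0.19 (second 0.40).

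The list of hedgehog signalling and genes tied to Glis2 had 16 genes, of which 11 were measured. Of the 11, 3 rose and none fell, beside 6.96% and 3.78% of all measured genes. The median log2 ratio was 0.25 (0.09 with median division). Wnt4, a Wnt ligand of tubule formation, went from 25.8 to 188.5 at its brighter probe set, a rise of at least 3.4-fold, while its second probe set gave a bound of 0.29. Gli3, a hedgehog transcription factor, rose 2.28-fold (65.4 to 149), and its other probe sets were under both medians. Snai2, a repressor of epithelial genes, rose 2.09-fold (123 to 256) at its brightest probe set that its name marks as shared with other transcripts, and its second probe set was under both medians. With median division Snai2 had a log2 ratio of 0.90, under 2-fold, so that 2 genes of the list rose, and likewise 2 rose with shared probe sets left out. Glis3, a relative of Glis2, had a log2 ratio of 0.40. The lowest were the hedgehog inhibitor Sufu (-0.59, and -0.31 at its second probe set), Shh (-0.38) and Glis1 with a bound of -0.36 (79.6 to 23.6). A further Sufu probe set had signals of 61.6 in control and 61.5 in cystic kidney, the latter under its median. Gli1, the usual hedgehog target, had signals of 35.2 and 48.3, and Hhip was under both medians at all its probe sets. Ptch1, of the same list, was measured, with signals of 369.3 and 437.9 at its brightest probe set. Its log2 ratio was 0.25. The second Ptch1 probe set had signals of 60.3 in control and 23.6 in cystic kidney, the latter under its median. Raised to the cystic median of 61.9, it gave a log2 ratio of at most 0.04, so no higher signal is shown there.

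The cell type markers of the RNA differed widely between the arrays beside these values, and their counts stand against 6.96% of all measured genes that rose and 3.78% that fell. Of 8 proximal tubule markers 7 fell, with a median of -1.71 and a summed signal of 34457 in control and 13310 in cystic kidney; Acy3, Cyp4b1 and Slc22a6 had -2.55, -2.40 and -2.06. Of 10 macrophage markers 8 rose, with a median of 2.57 and sums of 2123 and 10216, led by Lyz2 (4.00), C1qc (3.83) and C1qa (3.48). Of 10 fibroblast markers all rose, with a median of 2.13 and sums of 7474 and 33307, led by Tagln (3.81), Col1a1 (2.85) and Vim (2.46). Principal cell markers had 1 of 8 that rose, Gata3 (1.08, and 0.92 with median division), with a median of 0.32 and sums of 4557 and 5325; 3 of the 8 were below 0, among them Aqp3, a water channel, with -0.75, -0.53 and -0.80 at its 3 measured probe sets. Of 7 markers of motile ciliated cells with a probe set, 6 were under both medians, and Foxj1, their master factor, had signals of 40.6 and 62.6. No proximal tubule, macrophage or fibroblast marker was under both medians. In whole kidney RNA fewer cells of a type and less RNA per cell cannot be told apart, and the part of these shifts in the member ratios was not tested. The ratios of 0.30 to 0.38, of members measured on both arrays, were small beside the proximal tubule, macrophage and fibroblast medians. They were near the principal cell median of 0.32.

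**Figure D4:**
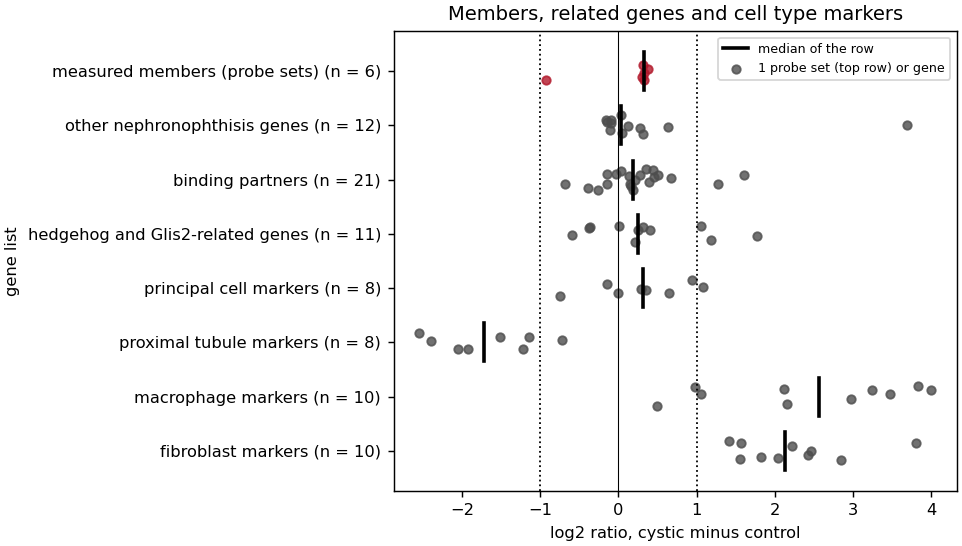
Log2 ratio (cystic minus control) of the 6 measured member probe sets (top row) and of the measured genes of 7 lists, 1 point each at its brightest probe set, bounds included, with the median of each row as a bar and dotted lines at 2-fold. The members cluster near 0.33 apart from Invs, the proximal tubule list lies to the left with a median of -1.71, and the macrophage and fibroblast lists lie to the right with medians of 2.57 and 2.13.

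The member ratios were also set side by side under 8 other ways of processing. The 5 probe sets of Nek8, Nphp4, Iqcb1 and Glis2 measured in the reported processing kept log2 ratios above 0 and under 2-fold. Wherever these probe sets counted as measured, their ratios ran from 0.11 to 0.43. With no limit on low signals, the second probe sets of Nek8 and Nphp4 had log2 ratios of 0.89 and -0.31. The Invs value was below 0 in each but ran from -0.23 to -2.89. The limit under which the cystic signal is not counted moved it most, from -0.23 at the 60th percentile to -2.89 with no limit. Changes of scaling alone gave -0.96 to -1.12.

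**Figure D5:**
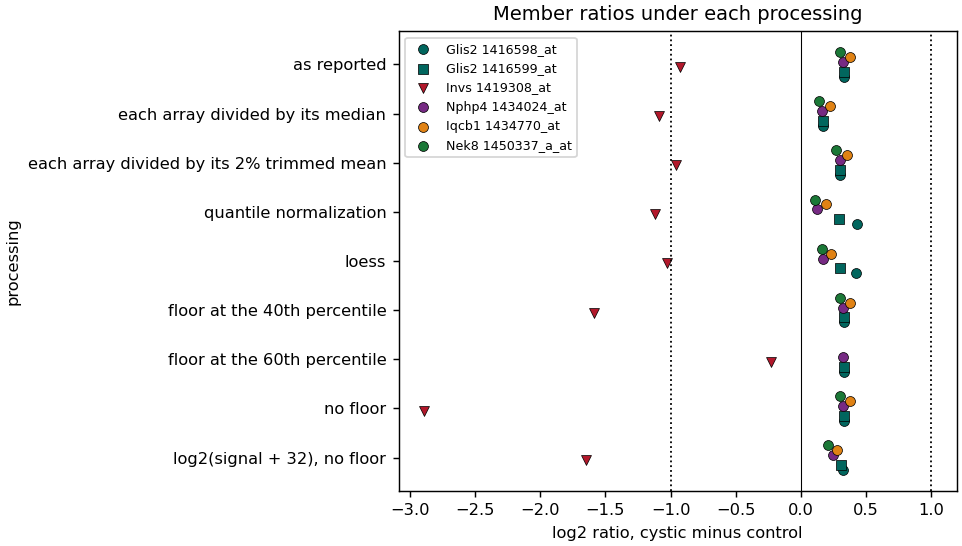
Log2 ratio (cystic minus control) of the 6 measured member probe sets under the reported processing (top row) and 8 alternatives, with dotted lines at 2-fold; Invs triangles are bounds except in the last 2 rows, which use no limit on low signals. Nek8, Nphp4, Iqcb1 and Glis2 stay between 0.11 and 0.43, and Invs moves between -0.23 and -2.89.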

How the data were processed

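Biotin-labelled kidney RNA was measured on 2 arrays, 1 control and 1 cystic. The authors deposited a linear signal intensity for each probe set, made with MAS5 per the submitters' processing notes. Version, scaling target and detection calls are not given in the sources used here. No rescaling was applied. Of 45101 probe sets, 64 control probe sets were left out. Of the 45037 used, 34945 name 1 gene, 932 several and 9160 none. Symbols are those of the platform annotation. In gene lists a gene took its brightest probe set. RefSeq tables of GRCm38.p6 gave gene order and promoters.

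Members and lists were chosen with earlier results of these data known. The genes named were all member probe sets, every measured neighbour of Invs, list genes past 2-fold with up to 4 extremes each way, and up to 3 per cell type list. Cep290, Tmem67, Zfp423, Anks3, Lats1, Dvl1, Gli1, Hhip, Ptch1 and the kidney and sex-linked genes were added after their values were seen.

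With 1 array per group no test was run. Scaling, the limit on low signals, the log scale, the probe sets and the threshold were varied. The steps, run with Python 3.11.15, were tested on simulated arrays.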

Additional observations from a re-analysis of the deposited data

How the results depend on the processing

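Scaling, low-signal limits and log scale decided the call of Invs 1419308_at. Its log2 ratio was -1.59 with the limit at the 40th percentile, -0.23 at the 60th, -2.89 with no limit and -1.65 as log2(signal + 32). Hence 1 member probe set, Invs, counted as lower with median division, quantile normalization, loess, the 40th percentile, no limit, log2(signal + 32) or a 1.5-fold threshold. With no limit or log2(signal + 32), 1 counted as higher, Invs 1460491_at. Of hedgehog and Glis2-related genes, 1 counted as lower with the 40th percentile, log2(signal + 32) or 1.5-fold, 2 with no limit, and 1 as higher with log2(signal + 32). Of other nephronophthisis genes 2 counted as higher with no limit or 1.5-fold, and 1 binding partner counted as lower with 1.5-fold. The other nephronophthisis genes' median went below 0 with median division (-0.13), quantile normalization (-0.13) and loess (-0.09). Gene identifiers found the same 10 probe sets. The neighbours of Invs had 6 higher and 2 lower probe sets with no limit, 7 and 2 at 1.5-fold, and 2 higher with median division, quantile normalization, loess or the 60th percentile. With each of these 4, and without shared probe sets, 2 hedgehog and Glis2-related genes counted as higher. With these, 22 values of neighbours, cell type and kidney lists, spread and the number of members measured moved and 220 did not; the macrophage median reached 2.97 and Gata3, the principal cell marker that rose, was under 2-fold with median division. The other member and list values kept counts within 1.5 times and ratios within the SD between probe sets. Nek8 and Iqcb1 were not measured with the 60th percentile. The share of all probe sets or genes past the threshold was worked out for the reported processing alone. Counts under the other settings therefore stand without a background and are not read as results. With no limit, 36.4% of the 20705 probe sets under both medians were past 2-fold. No paired analysis was possible because each group has 1 array. Signals near the array medians limit what can be read for Nek8, Nphp4 and Iqcb1.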
